A study of Mus musculus with 2 samples.

Results

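Cholesterol and fatty acid synthesis genes are described here as a set of 37 genes picked by symbol, from the enzymes of both pathways, the regulators that set their expression and the sterol exporters. All 37 had a row in the deposited table of 46095 genes. The RNA came from mouse acute myeloid leukaemia (AML) cells, sorted from bone marrow as leukaemia-initiating cells that carried Mac1 and c-Kit on their surface. One library carries the genotype label P2x7-KO (title ending KD) and one the label wild type (title ending Scr), both from C57BL/6 mice of 8 weeks. P2x7, the product of P2rx7, is a cation channel that opens when it binds ATP outside the cell. The sources used here do not state the oncogene behind the leukaemia, the nature of the P2x7 allele, or whether a library stands for 1 mouse or several.

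Cholesterol is built from acetyl-CoA through mevalonate, isoprenoid units, squalene and a series of sterol intermediates. The transcription factors SREBP1 and SREBP2 raise these enzymes and those of fatty acid synthesis. SCAP carries them out of the endoplasmic reticulum when sterol is scarce, and INSIG proteins hold them there when it is plentiful. The liver X receptors (LXRs) sense oxysterols and switch on the exporters ABCA1 and ABCG1, best known from cholesterol-loaded macrophages.

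With 1 library for each genotype there is no replicate check, and no test between genotypes was made. Totals were 12435916 counts in the library labelled P2x7-KO and 12456212 in the library labelled wild type. A gene at 0 is limited to 0.236 and 0.247 CPM in them, taking 3 counts as the limit. CPM here is counts scaled to 1000000 per library with TMM factors. Intervals are exact 95% counting intervals, which cover neither differences between mice, sorts or preparations nor duplicate reads. P2rx7 went against its label, with 543 counts (42.6 CPM) in the library labelled P2x7-KO and 229 counts (18.8 CPM) in the library labelled wild type, so the libraries are called by their labels. Both sort genes were detected in each library, Kit at 67.6 and 46.0 CPM and Itgam at 543 and 187 CPM in the libraries labelled P2x7-KO and wild type.

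The upstream sequence of 4 members is shown because they carry the range of the results: Abca1 and Hsd17b7 stood higher in the library labelled P2x7-KO, Fads2 stood lower, and Hmgcs1 is the member with a sterol regulatory element in the window. Each line holds the 250 bases before the RefSeq gene start on the coding strand (GRCm38.p6), with motif matches on either strand in capitals. Abca1 lies at chr4:53159896-53160145 (minus), Hsd17b7 at chr1:169969206-169969455 (minus), Fads2 at chr19:10101504-10101753 (minus) and Hmgcs1 at chr13:119690101-119690350 (plus).
Abca1: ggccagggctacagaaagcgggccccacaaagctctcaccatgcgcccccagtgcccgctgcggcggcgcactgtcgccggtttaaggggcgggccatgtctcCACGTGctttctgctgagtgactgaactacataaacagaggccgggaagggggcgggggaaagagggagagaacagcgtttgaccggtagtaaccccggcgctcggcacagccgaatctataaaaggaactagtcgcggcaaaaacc
Hsd17b7: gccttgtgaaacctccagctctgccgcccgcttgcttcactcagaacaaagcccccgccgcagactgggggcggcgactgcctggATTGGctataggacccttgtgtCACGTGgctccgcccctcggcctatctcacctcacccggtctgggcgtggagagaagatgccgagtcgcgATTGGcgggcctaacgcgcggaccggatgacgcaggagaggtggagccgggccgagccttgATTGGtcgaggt
Fads2: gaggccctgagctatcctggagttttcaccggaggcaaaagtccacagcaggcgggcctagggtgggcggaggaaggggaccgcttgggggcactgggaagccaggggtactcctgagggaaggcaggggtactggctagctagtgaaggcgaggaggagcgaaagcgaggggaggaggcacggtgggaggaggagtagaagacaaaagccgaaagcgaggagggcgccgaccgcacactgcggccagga
Hmgcs1: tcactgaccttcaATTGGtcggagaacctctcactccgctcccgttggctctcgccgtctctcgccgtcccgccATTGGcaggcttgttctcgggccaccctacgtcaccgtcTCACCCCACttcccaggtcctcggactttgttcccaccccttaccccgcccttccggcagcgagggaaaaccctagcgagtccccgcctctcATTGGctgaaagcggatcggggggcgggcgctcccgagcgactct
RefSeq windows were found for 30 of the 37 members, and not for Fdps, Fdft1, Sqle, Abcg1, Scd1, Scd2 and Fads1. Motifs were spelled TCACNCCAC (sterol regulatory element, bound by SREBPs), CCAAT (bound by NF-Y, a known partner of SREBPs), CACGTG (E-box) and a DR4 repeat of the kind LXRs bind (AGGTNA, then 5 bases of any kind, then GGTCA), with no overlap between matches of different motifs in the printed windows. A CCAAT match was present for 22 of the 30 members (73.3%), against 37.5% of all 27025 genes with a window. Mvk held 5 CCAAT matches, and Hmgcs1, Ggps1, Msmo1, Hsd17b7, Insig2 and Fasn held 3 each. In Fasn the matches that began 62 and 59 bases before the start overlap, on opposite strands. The E-box was present for 7 members (23.3%), against 6.86% of all genes, and the sterol regulatory element for 1 (3.33%), against 1.22%. In Hmgcs1 that element began 137 bases before the start, and in Abca1 the E-box began 147 bases before it. No member window held an exact match to the DR4 letters, as 0.0851% of all genes did. The Abca1 window holds, on the opposite strand, a run that differs from those letters at 1 base. Near matches were not searched for, so the result does not show that a window lacks an LXR site. The Fads2 window held none of the 4 motifs. These are letter matches in a fixed window, described without a test.

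Most of the set lay within 2-fold between the libraries. Of 37 members, 35 had at least 20 counts over both libraries and were counted. The ratio was at least 2-fold, with an interval that excluded equality, for 3 higher and 2 lower in the library labelled P2x7-KO. These 5 make 14.3% of the 35, and 19.8% of all 13363 genes counted passed the same rule (10.8% higher and 8.95% lower), so the members' share lies near this background and is no result about the set. The higher members were Abca1, Abcg1 and Hsd17b7, and the lower ones Fdps and Fads2. Intervals excluded equality for 26 of 35 members (74.3%), against 70.2% of all genes counted. They lay above equality for 9 members (25.7%) and below it for 17 (48.6%), against 35.6% above and 34.7% below among all genes, and that split was not tested. The median log2 ratio was -0.23 over the 35 members and 0.00 over all genes counted. Ratios were also adjusted for the trend of all genes with transcript length and GC content, and are called adjusted from here on. The adjusted median of the members was -0.18, with 2 members higher and 2 lower past the rule, beside 13.6% of 12374 genes (8.22% higher and 5.37% lower). At a 1.5-fold rule 5 members were higher and 6 lower, beside 40% of all genes (21.1% higher and 18.9% lower). Where the nearer interval bound had to reach 2-fold, 2 members were higher and 1 lower, beside 9.38% of all genes (5.42% higher and 3.96% lower). In bulk RNA, a change in the number of cells of a type and a change in RNA per cell cannot be told apart.

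**Figure D1:**
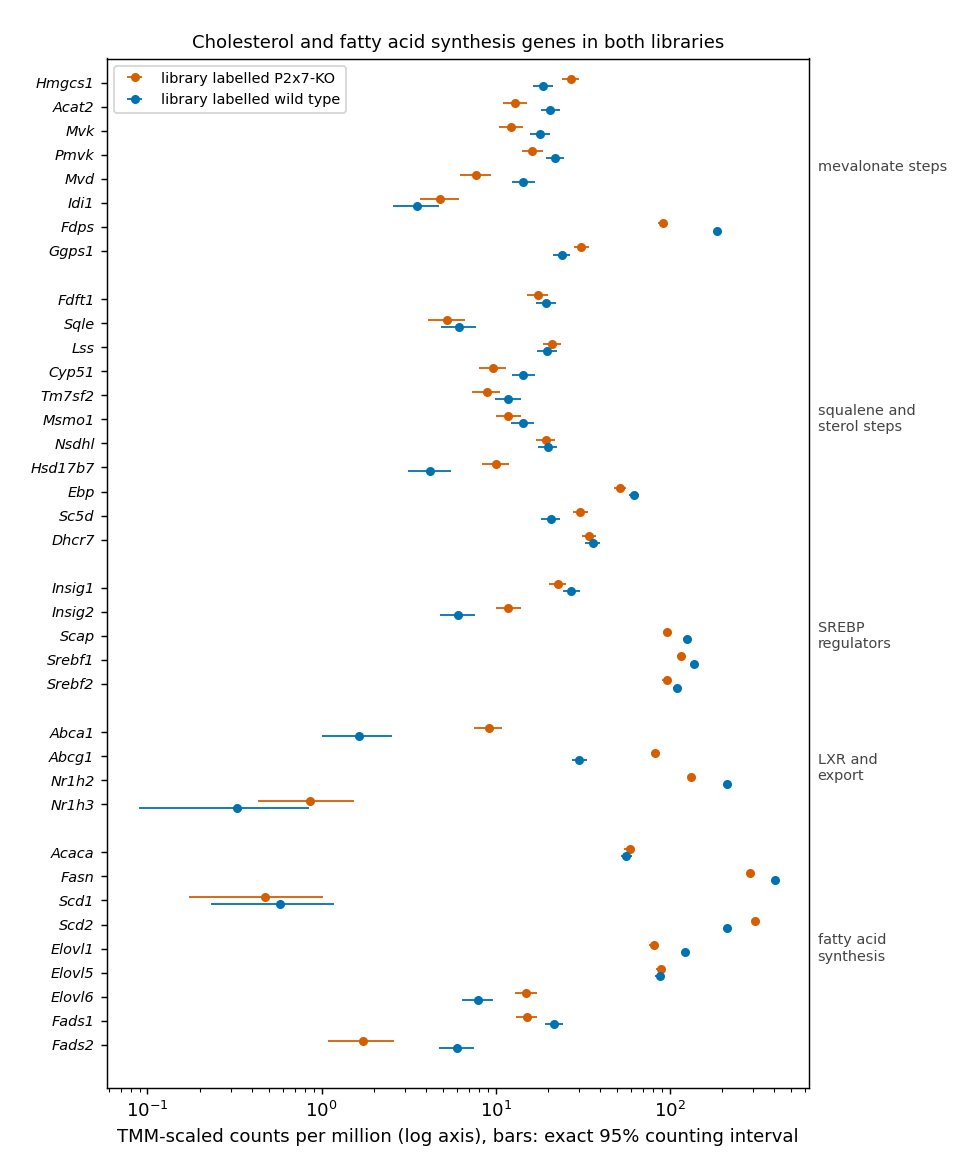
TMM-scaled CPM (log axis) of all 37 members in the library labelled P2x7-KO (orange) and the library labelled wild type (blue), ordered by role, with exact 95% counting intervals as bars. Pairs of the 35 members counted lie within 2-fold except for Abca1, Abcg1, Hsd17b7, Fdps and Fads2, and Scd1 and Nr1h3 sit near the detection limit.

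The mevalonate steps had more members below equality than above, and Fdps stood furthest apart. Fdps encodes farnesyl diphosphate synthase, which joins isoprenoid units into the precursor of squalene and of protein prenyl groups. It lies at chr3:89093588-89101959 on the minus strand (mm10, GENCODE M21). Fdps had 1161 counts (91.2 CPM, interval 86.0 to 96.6) in the library labelled P2x7-KO and 2286 counts (188 CPM, 180 to 196) in the library labelled wild type. It was 2.06-fold lower (1.92 to 2.21), just past the rule, and with total count scaling its log2 ratio of -1.04 became -0.97, just inside it. Of its annotated exon bases 26.7% are shared with Gm43738, a gene model on the same strand, so how such reads were assigned bears on its count.

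The other 7 mevalonate genes together had 112 CPM in the library labelled P2x7-KO and 121.5 CPM in the library labelled wild type. Mvd, mevalonate diphosphate decarboxylase, had 98 counts in the library labelled P2x7-KO and 176 in the library labelled wild type, 1.88-fold lower (1.46 to 2.43). Acat2, the cytosolic thiolase that makes acetoacetyl-CoA, had 165 counts in the library labelled P2x7-KO and 251 in the library labelled wild type, 1.59-fold lower (1.30 to 1.95). The mevalonate kinase gene Mvk had 156 and 219 counts in those libraries, 1.47-fold lower, and the phosphomevalonate kinase gene Pmvk had 207 and 268, 1.36-fold lower. Those 4 enzyme genes were thus all below equality with intervals that excluded it, though Mvk and Pmvk no longer were once adjusted, at log2 ratios of -0.24 (-0.55 to 0.06) and 0.12 (-0.15 to 0.38).

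On the other side, Hmgcs1, which encodes the HMG-CoA synthase that opens the branch to mevalonate, had 344 counts (27.0 CPM) in the library labelled P2x7-KO and 229 counts (18.8 CPM) in the library labelled wild type. Its ratio was 1.44 (1.21 to 1.70), and Gm48342 on the opposite strand shares 12.1% of Hmgcs1's exon bases. Ggps1, which makes the geranylgeranyl group for protein prenylation, had 395 and 292 counts in those libraries, a ratio of 1.29 (1.11 to 1.51) that did not hold once adjusted, at a log2 ratio of -0.04 (-0.27 to 0.18). The isomerase gene Idi1 had 61 and 43 counts, a ratio of 1.36 whose interval of 0.902 to 2.05 holds equality. The group's median log2 ratio was -0.50, and its adjusted median -0.14.

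The squalene and sterol steps were mostly even, at a median log2 ratio of -0.17. Among its 11 genes 1 (9.09%) passed the rule on the higher side and 0 on the lower side, beside 10.8% and 8.95% of all genes counted. The intervals of 6 held equality, and those of 5 (45.5%) excluded it, against 70.2% of all genes counted. Hsd17b7 encodes a 3-ketosteroid reductase that works on sterol intermediates in the endoplasmic reticulum, at chr1:169949535-169969241 on the minus strand (mm10). It had 128 counts (10.1 CPM) in the library labelled P2x7-KO and 51 counts (4.19 CPM) in the library labelled wild type. The ratio was 2.40 (1.72 to 3.39). The log2 ratio was 1.25, and 0.88 (0.41 to 1.38) when adjusted, which is under 2-fold but still above equality.

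Other steps of the pathway lay nearer to equality. Sqle, the squalene epoxidase gene, had 67 counts in the library labelled P2x7-KO and 75 in the library labelled wild type, and the lanosterol synthase gene Lss had 270 and 240. Nsdhl, a dehydrogenase of the demethylation steps, had 247 and 242 counts in those libraries. The ratios of these 3 genes, from 0.853 to 1.07, had intervals that hold equality, although adjusted Lss lay below it, at a log2 ratio of -0.36 (-0.61 to -0.10). The lanosterol demethylase gene Cyp51 had 123 counts in the library labelled P2x7-KO and 176 in the library labelled wild type, a ratio of 0.668 (0.526 to 0.845). Tm7sf2, a sterol reductase gene, had 113 and 144 counts in those libraries, 1.33-fold lower (1.04 to 1.72). Vps51, on the same strand, covers 12.1% of the exon bases of Tm7sf2.

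Among the late enzymes, the sterol desaturase gene Sc5d had 391 counts (30.7 CPM) in the library labelled P2x7-KO and 252 counts (20.7 CPM) in the library labelled wild type, a log2 ratio of 0.57 that was 0.14 (-0.09 to 0.38) when adjusted. Dhcr7, which closes the synthesis by reducing 7-dehydrocholesterol, had 438 and 439 counts in those libraries. The sterol isomerase gene Ebp had 659 and 760 counts, a ratio of 0.828 (0.745 to 0.921), and adjusted its log2 ratio of -0.05 (-0.20 to 0.10) held equality. Msmo1, the sterol methyl oxidase gene, had 151 and 174 counts, and Fdft1, the squalene synthase gene, had 222 and 238, both with intervals that hold equality, although adjusted Msmo1 lay below it, at a log2 ratio of -0.40 (-0.73 to -0.08). Fdft1 shares 18.3% of its exon bases with Ctsb on the opposite strand, which had 8192 and 6126 counts in the libraries labelled P2x7-KO and wild type, so without the strand setting its value is uncertain. Over smaller shares the same limit holds for Ggps1 (5.44%, with Arid4b), Cyp51 (3.76%, with Akap9), Elovl1 (1.94%, with Cdc20) and Srebf1 (1.93%, with Rai1).

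The regulators of SREBP were all within 2-fold, and the INSIG genes lay on opposite sides. Insig2 had 151 counts (11.9 CPM) in the library labelled P2x7-KO and 74 counts (6.08 CPM) in the library labelled wild type. Its ratio of 1.95 (1.47 to 2.61) was just short of the rule, and passed it with total count scaling, at a log2 ratio of 1.03 where TMM gave 0.96. Insig1, which unlike Insig2 is itself a well-known SREBP target, had 290 counts in the library labelled P2x7-KO and 332 in the library labelled wild type, a ratio of 0.834 (0.710 to 0.980). That interval held equality with total count scaling, at a log2 ratio of -0.19 (-0.43 to 0.04), and likewise with DESeq2 scaling, with thinning and when adjusted for length alone.

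The SREBP genes and their escort were abundant and slightly lower in the library labelled P2x7-KO. Srebf1, which encodes SREBP1, had 116 CPM in that library and 138 CPM in the library labelled wild type, 1.19-fold lower (1.11 to 1.28). Srebf2, which encodes SREBP2, had 96.0 and 110.5 CPM in those libraries, 1.15-fold lower (1.06 to 1.24). Scap, the escort, had 96.7 and 126 CPM, 1.30-fold lower (1.21 to 1.40), with 13.2% of its exon bases under a gene model on the opposite strand. All 3 kept their side of equality when adjusted, at log2 ratios of -0.11, -0.18 and -0.21. A transcript level does not measure the processed, nuclear form of SREBP.

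**Figure D2:**
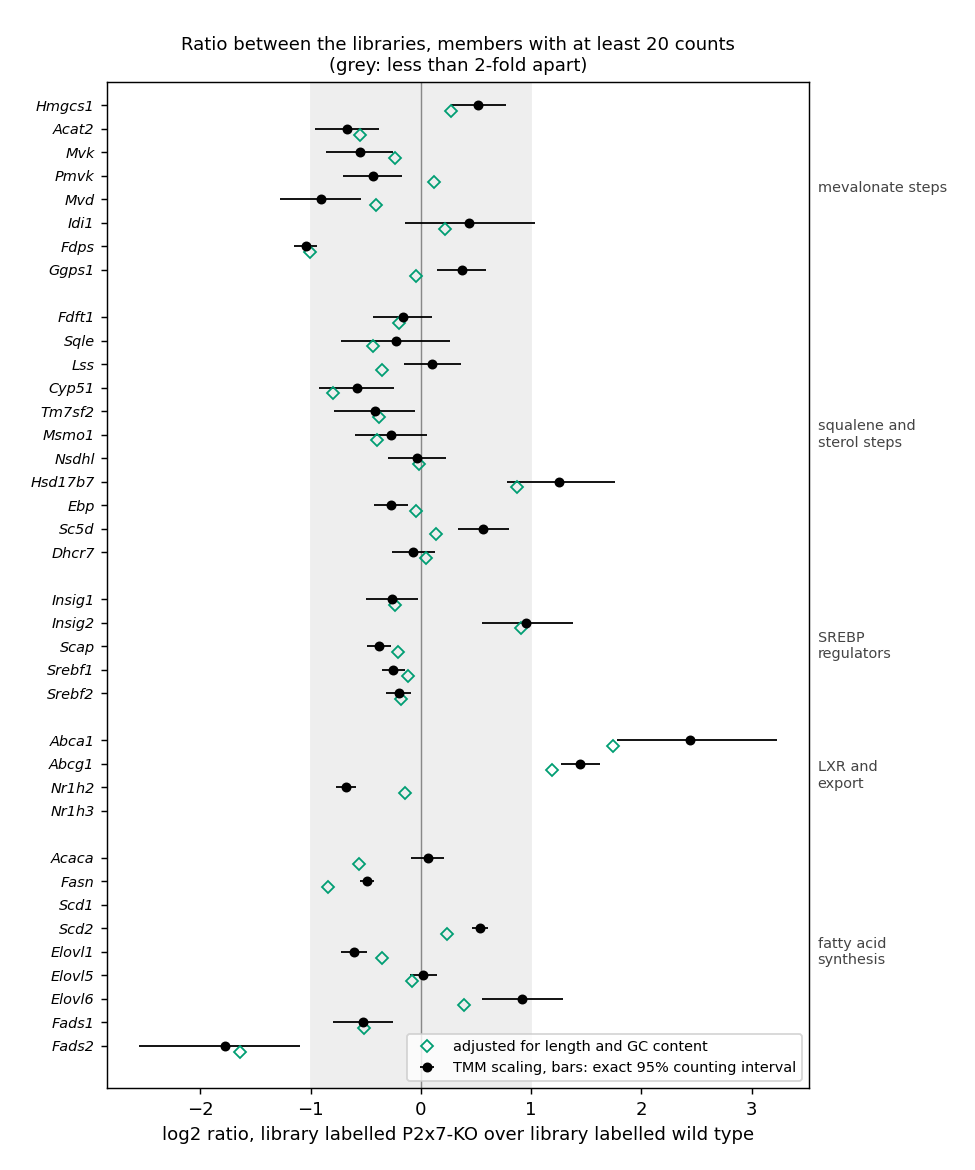
Log2 ratio of the library labelled P2x7-KO over the library labelled wild type for the 35 members counted, with TMM scaling (black, exact 95% counting intervals) and adjusted for both length and GC content (green diamonds). Abca1 and Abcg1 lie right of the grey 2-fold band with both, Fads2 lies left of it with both, and Hsd17b7 moves into it when adjusted.

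Both sterol exporters were past 2-fold, and Abca1 stood furthest apart of the 35 members counted. Abca1 encodes the transporter that passes cellular cholesterol to apolipoprotein A-I, and lies at chr4:53030787-53159895 on the minus strand (mm10). It had 116 counts (9.11 CPM) in the library labelled P2x7-KO and 20 counts (1.64 CPM) in the library labelled wild type. The ratio was 5.54 (3.43 to 9.41), above the ratios of 98.9% of all genes counted. Abcg1, which exports cholesterol to high-density lipoprotein, lies at chr17:31057675-31117988 on the plus strand. It had 1053 counts (82.7 CPM, 77.8 to 87.8) in the library labelled P2x7-KO and 369 counts (30.3 CPM, 27.3 to 33.6) in the library labelled wild type, a ratio of 2.73 (2.42 to 3.08). Adjusted, both stayed past 2-fold, at log2 ratios of 1.74 (1.08 to 2.54) and 1.19 (1.02 to 1.36). Abca1 has a long transcript of 10262 bases, and its unadjusted log2 ratio was 2.44.

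Of the receptor genes, Nr1h2 lay on the other side and Nr1h3 was too scarce to be counted. Nr1h2, which encodes the widely expressed LXR beta, had 1696 counts (133 CPM) in the library labelled P2x7-KO and 2595 counts (213 CPM) in the library labelled wild type. It was 1.60-fold lower (1.51 to 1.70), with a log2 ratio of -0.68 and an adjusted one of -0.14 (-0.23 to -0.05). Nr1h3, which encodes the macrophage and liver form LXR alpha, had 11 counts in the library labelled P2x7-KO and 4 in the library labelled wild type. That is under the 20 counts needed, and its ratio of 2.63 has an interval of 0.778 to 11.3.

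Summed macrophage markers were also higher in the library labelled P2x7-KO. The 10 listed macrophage genes summed to 785 CPM in the library labelled P2x7-KO and 494 CPM in the library labelled wild type, with none at 0 in either. Of 8 counted, 5 lay above equality and 3 below it. At least 2-fold higher were 2 of them, or 25% (Csf1r at 2.75-fold and Vcam1 at 5.33-fold), beside 19.8% of all genes counted past the rule (10.8% higher and 8.95% lower). Of the rest 0 were lower and 6 were neither. The 6 included Cd68, at 212 and 260 CPM in the libraries labelled P2x7-KO and wild type, and the complement genes C1qb, at 26 and 24 counts in those libraries, and C1qc, at 33 and 34. Their part in the exporter difference was not tested. Erythroid markers summed to 11.2 and 1.32 CPM in the libraries labelled P2x7-KO and wild type, neutrophil markers to 1732 and 1415 CPM, dendritic markers to 920 and 829 CPM, B lymphoid markers to 99.3 and 132 CPM and T and NK lymphoid markers to 13.3 and 35.1 CPM, while Ncr1 and H2-Aa were at 0 in both. A sum follows its most abundant genes. Of 4 B lymphoid genes counted, 2 lay above equality and 2 below it, at a median log2 ratio of 1.23. Of 7 neutrophil genes counted, 4 lay above and 3 below. All 4 dendritic genes counted lay above. The erythroid list had 2 genes counted, both above, and the T and NK list 2, both below. Of all 13363 genes counted, 6712 lay above and 6651 below.

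The fatty acid genes were led in level by Fasn and Scd2, which made up 69.6% of the group's CPM in the library labelled P2x7-KO and 67.0% in the library labelled wild type, and these genes leaned opposite ways. Fasn, the fatty acid synthase that makes palmitate, had 3670 counts (288 CPM, 279 to 298) in the library labelled P2x7-KO and 4918 counts (404 CPM, 393 to 416) in the library labelled wild type. Its ratio was 0.713 (0.683 to 0.744), with a log2 ratio of -0.49 and an adjusted one of -0.84 (-0.91 to -0.78). Adjusted for length alone it passed 2-fold, at -1.19. Scd2, a stearoyl-CoA desaturase that puts the double bond into saturated chains, had 3932 counts (309 CPM, 299 to 319) in the library labelled P2x7-KO and 2586 counts (213 CPM, 204 to 221) in the library labelled wild type, a ratio of 1.45 (1.38 to 1.53). Its adjusted log2 ratio was 0.24 (0.17 to 0.31). The paralogue Scd1, beside it on chromosome 19, had 6 and 7 counts in those libraries, so Scd2 held 99.8% and 99.7% of the reads of the pair. Reads shared by such similar genes may have been split or dropped in counting.

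Acaca, acetyl-CoA carboxylase, which commits carbon to fatty acids, had 749 counts in the library labelled P2x7-KO and 686 in the library labelled wild type, a ratio of 1.04 (0.939 to 1.16). Its adjusted log2 ratio was -0.56 (-0.71 to -0.41), the side on which Fasn lay, and its transcript of 9513 bases is among the longest of the set. The elongases split by enzyme. Elovl6, which extends palmitate to stearate, had 190 counts (14.9 CPM) in the library labelled P2x7-KO and 96 counts (7.89 CPM) in the library labelled wild type, a ratio of 1.89 (1.47 to 2.44), with an adjusted log2 ratio of 0.40 (0.04 to 0.77). Elovl1, which extends saturated very long chains, had 80.9 and 123 CPM in those libraries, 1.52-fold lower (1.41 to 1.65). Elovl5, which extends polyunsaturated chains, had 89.1 and 87.8 CPM, a ratio of 1.01 (0.932 to 1.10).

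The desaturases of polyunsaturated fatty acids were both lower in the library labelled P2x7-KO. Fads2, the delta-6 desaturase gene at chr19:10062765-10101746 on the minus strand (mm10), had 22 counts (1.73 CPM, 1.08 to 2.62) in the library labelled P2x7-KO and 73 counts (6.00 CPM, 4.70 to 7.55) in the library labelled wild type. It was 3.47-fold lower (2.13 to 5.88), with a log2 ratio of -1.77 and an adjusted one of -1.64 (-2.42 to -0.96). Fads1, the delta-5 desaturase gene next to it on chromosome 19, had 192 counts in the library labelled P2x7-KO and 264 in the library labelled wild type, 1.44-fold lower (1.19 to 1.74). Fads1 thus lay on the same side but within 2-fold.

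Per length, the set held abundant and scarce steps side by side within each library. Levels in TPM (counts per kilobase of annotated exon, scaled to 1000000 per library) were 10 or more for 25 of 37 members in the library labelled P2x7-KO and for 23 in the library labelled wild type. In the library labelled P2x7-KO the order was led by Scd2 (199 TPM), Nr1h2 (140 TPM), Elovl1 (105 TPM), Fasn (92.7 TPM) and Elovl5 (89.0 TPM). In the library labelled wild type it was led by Nr1h2 (174 TPM), Elovl1 (123 TPM), Fdps (122 TPM), Scd2 (106 TPM) and Fasn (101 TPM). Taken per longest transcript in place of all exons, the order in the library labelled P2x7-KO was led by Nr1h2 (180 TPM) over Scd2 (153 TPM), and Fdps (83.4 TPM) stood above Fasn (77.4 TPM). In the library labelled wild type Nr1h2, Elovl1 and Fdps led with either length, while Fasn (85.0 TPM) then stood above Scd2 (82.3 TPM). Among the members of the mevalonate, squalene and sterol steps, Fdps and Ebp stood highest in both libraries, with 76.3 and 78.9 TPM in the library labelled P2x7-KO and 122 and 73.8 TPM in the library labelled wild type. Sqle, a rate-controlling step, was among the lowest at 3.34 and 3.03 TPM in those libraries, and Idi1 stood at 4.81 and 2.75 TPM.

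**Figure D3:**
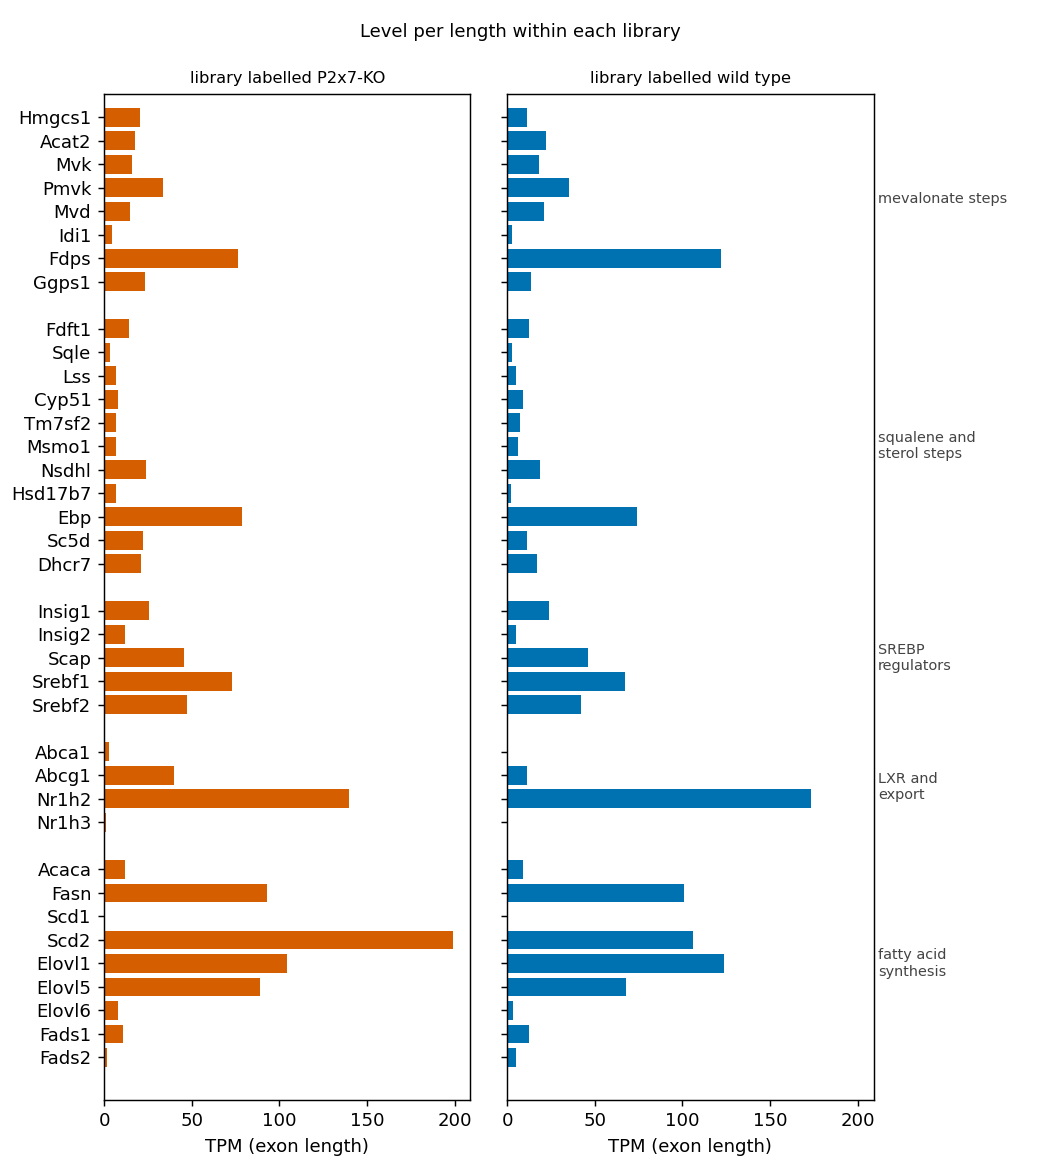
Level per length of all 37 members in TPM, in the library labelled P2x7-KO (left, orange) and the library labelled wild type (right, blue), on a shared linear axis. Scd2 leads the left panel at 199 TPM and Nr1h2 the right at 174 TPM, while Scd1, Nr1h3 and Abca1 lie near 0 in both.

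Other lipid genes, taken from a list of the surrounding pathways, had a median above equality as a whole, though not in every role. Among 80 counted of 97 found, 11 passed the rule as higher and 3 as lower, which is 17.5% beside the 19.8% of all genes. Their median log2 ratio was 0.33, and 0.14 when adjusted. By role, it was -0.01 (adjusted -0.23) for sterol synthesis and uptake, and -0.22 (adjusted -0.23) for fatty acid elongation and desaturation. It was 0.44 (adjusted 0.21) for SREBP activation and sterol sensing, and 0.45 (adjusted 0.24) for acetyl-CoA and fatty acid supply. The genes of sterol esters, oxysterols and export held 4 of the 11 higher, out of 12 counted, with 0 lower. That is 33.3%, beside 19.8% of all genes counted (10.8% higher and 8.95% lower), in a list chosen with earlier results known. This difference was not tested. The median of this role was 0.73, and 0.85 when adjusted. Soat1, which esterifies cholesterol for storage, had 1143 counts in the library labelled P2x7-KO and 365 in the library labelled wild type (ratio 2.99, 2.66 to 3.37). Nceh1, which frees cholesterol from its esters, had 760 and 267 counts in those libraries (2.72, 2.36 to 3.14).

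The other higher genes of that role were Cyp27a1, a sterol hydroxylase that makes an oxysterol, and Apoe, the apolipoprotein that carries exported cholesterol. Cyp27a1 had 515 counts in the library labelled P2x7-KO and 207 in the library labelled wild type (2.38, 2.02 to 2.81), and Apoe had 2486 and 914 (2.60, 2.41 to 2.81). The adjusted log2 ratios of Nceh1, Cyp27a1 and Apoe were 1.10, 1.52 and 1.98, while Soat1 came under 2-fold at 0.87. Abca1 and Abcg1 stood on the same side as these genes of sterol storage and transport. All of them were named for being higher past the rule, so their shared side is no result. In the same role Hsd3b7 lay below equality, at a ratio of 0.672 (0.608 to 0.742). Of the 12 genes counted in that role, the intervals of 9 (75%) lay above equality and that of 1 (8.33%) below it. Among all genes counted 35.6% lay above and 34.7% below, and the split was not tested. Of the marker sums given above, the macrophage, erythroid, neutrophil and dendritic sums were also higher in the library labelled P2x7-KO. Both lymphoid sums were lower. The B lymphoid, macrophage and neutrophil genes counted each lay on both sides of equality.

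Further genes past the rule belonged to several roles. Of 14 genes of sterol synthesis and uptake counted, 1 was higher and 2 were lower past the rule. Of 11 genes of fatty acid elongation and desaturation counted, 1 was higher and 0 were lower. Among all genes counted 10.8% were higher and 8.95% lower. The lipoprotein receptor gene Lrp1 had 5711 counts in the library labelled P2x7-KO and 1411 in the library labelled wild type (3.87, 3.65 to 4.10). Hacd4, an acyl-CoA dehydratase gene of the elongation cycle, had 333 and 48 counts in those libraries (6.63, 4.89 to 9.17). Acss2, which makes cytosolic acetyl-CoA from acetate, had 157 and 52 counts (2.88, 2.10 to 4.03). Acacb, the mitochondrial acetyl-CoA carboxylase gene, had 54 and 25 (2.06, 1.26 to 3.46), and its adjusted log2 ratio of 0.69 was under 2-fold, with an interval that held equality. Paqr3, a Golgi protein gene, had 81 and 31 (2.50, 1.63 to 3.91). On the lower side, the citrate carrier gene Slc25a1 had 8 counts in the library labelled P2x7-KO and 23 in the library labelled wild type, 3.01-fold lower (1.30 to 7.78). It no longer passed the rule when adjusted, with a log2 interval of -2.43 to 0.16 that held equality, and the other 2 lower genes are not reported here. Among the genes of SREBP activation and sterol sensing, 1 of 9 (11.1%) was past the rule, beside 19.8% of all genes counted. The site-2 protease gene Mbtps2 had 359 counts in the library labelled P2x7-KO and 191 in the library labelled wild type, a ratio of 1.80 and an adjusted log2 ratio of 0.36 (0.10 to 0.62).

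**Figure D4:**
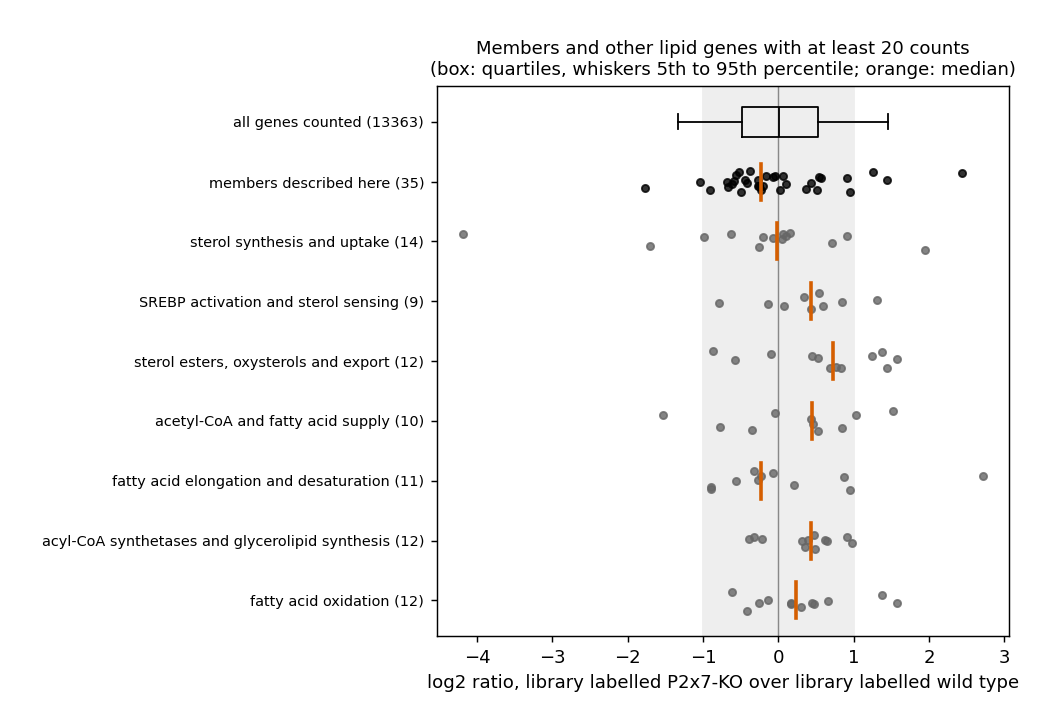
Log2 ratio of the library labelled P2x7-KO over the library labelled wild type for all 13363 genes counted (box with quartiles, whiskers from the 5th to the 95th percentile), the 35 members and 80 other lipid genes by role (points, medians in orange). The members' median lies at -0.23 and that of the genes of sterol esters, oxysterols and export at 0.73, with wide overlap between all rows.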

How the data were processed

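RNA sequencing libraries were 1 per genotype label. The deposited values are raw counts per gene, and the submitters' processing notes name HISAT2 2.0.4 and mm10. The sources used here state neither the counting program nor the annotation or strand setting. All value columns were used. Members, lists and rules were chosen with earlier results of these data known.

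Counts were scaled by TMM (edgeR 4.0.16, R 4.3.3). Ratios carry Clopper-Pearson 95% counting intervals (scipy 1.17.1), log2 ratios have 0.5 added to each count, and genes were counted from 20 counts upward, summed over the libraries. A gene was called at a ratio of 2 or more either way with an interval that excluded 1. The interval was tested on simulated data. Length and GC content came from the longest GENCODE M21 transcript, known for 12374 of 13363 genes counted, and their smooth trends over all those genes were subtracted. Alternatives were total count, DESeq2 1.42.0 and upper quartile scaling, TMM without abundant gene classes, thinning, and other thresholds. Text names all members, and of the pathway list those past the rule and some others as examples, which are not always the nearest to it. A few genes within that naming rule are not reported here.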

Additional observations from a re-analysis of the deposited data

How the results depend on the processing

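Of 373 alternative values of single members, 356 kept their call under the rule of that alternative. None of the 5 members past the 2-fold rule turned in direction. Part of this tally was fixed in advance, so it overstates how far the calls were tried. Adding 2 to each count enters the log2 ratio but not the call. Scd1 and Nr1h3 could not be called wherever a minimum of 20 or more counts applied. Abca1 and Abcg1 stayed past the rule under every alternative run. Of the other members past it, Fdps dropped inside with total count scaling and with thinning (log2 ratio -0.97 and -0.98) and where the nearer interval bound had to reach 2, Hsd17b7 dropped inside after adjustment for length and GC content (0.88) and under that bound rule, and Fads2 has fewer than the 100 counts of the stricter filter. The count of members at least 2-fold higher, 3, became 5 with thinning and 5 at 1.5-fold, and with thinning the added genes were Insig2 and Elovl6. The count lower, 2, became 1 with total count scaling, 1 with thinning, 1 with at least 100 counts, 1 under the bound rule and 6 at 1.5-fold. In the list of other lipid genes the count higher, 11, became 26 at 1.5-fold, and the count lower, 3, became 1 with at least 100 counts and 10 at 1.5-fold. Among all genes counted, 21.1% were higher and 18.9% lower at 1.5-fold, where the 2-fold rule gave 10.8% and 8.95%. Shares of all genes with thinning, total count scaling and the 100-count filter are not given here. The counts under those settings are therefore no result about the members or the list. Group medians were set beside the medians of their genes' lower and upper interval bounds, which are not an interval of the median itself. After adjustment for length and GC content, medians fell outside those bounds for the mevalonate steps (-0.50, then -0.14), for LXR receptors and export (1.45, then 1.19) and for the fatty acid genes (-0.23, then -0.43). Adjustment for length alone moved the medians of the SREBP regulators (-0.25, then -0.44), of LXR receptors and export (to 1.06) and of the fatty acid genes (to -0.47) outside them. The cause of these shifts was not tested. LXR receptors and export had 3 genes counted, so that median and its bounds are those of Abcg1 alone. Nr1h2 in that group lay at -0.68, and the group summed to 226 CPM in the library labelled P2x7-KO and 246 CPM in the library labelled wild type. Depth limits Scd1 and Nr1h3, at 13 and 15 counts over both libraries. No paired analysis was possible because each genotype has 1 library.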

Other observations

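Genes that burn or store fatty acids are described here by role. Of 12 genes of fatty acid oxidation counted, 2 were at least 2-fold higher and 0 lower, which is 16.7% beside 19.8% of all genes counted, a share near that background. Their median log2 ratio was 0.23, and 0.29 when adjusted for both length and GC content. The medians of the single genes' lower and upper interval bounds were -0.02 and 0.48, which is not an interval of the median itself. Cpt1a, which admits long-chain fatty acids to mitochondria, had 1474 counts (116 CPM) in the library labelled P2x7-KO and 473 counts (38.9 CPM) in the library labelled wild type, a ratio of 2.98 (2.68 to 3.31) and an adjusted log2 ratio of 1.45. Acadvl, the very long chain acyl-CoA dehydrogenase gene, had 99 and 36 counts in those libraries (2.63, 1.78 to 3.96). Hadha, of the trifunctional protein that follows it, had 2115 and 2408 counts, 0.839 of the level in the library labelled wild type (0.791 to 0.890), so its steps lay on both sides.

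Of 12 genes of acyl-CoA and glycerolipid synthesis counted, 0 were past the rule in either direction, beside 19.8% of all genes counted. Their median was 0.43, and 0.33 when adjusted. The intervals of 9 (75%) lay above equality and those of 3 (25%) below it, against 35.6% and 34.7% of all genes counted. The acyl-CoA synthetase gene Acsl1 was nearest to the rule, with 2672 counts in the library labelled P2x7-KO and 1298 in the library labelled wild type (1.97, 1.84 to 2.10), and an adjusted log2 ratio of 0.51. Plin2, which coats lipid droplets, had 1194 and 823 counts in those libraries (1.39, 1.27 to 1.52). No test was made of any difference between these roles and the members.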
